A study of Mus musculus with 8 samples.

Results

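The 8 mast cell genes Cpa3, Cma1, Mcpt4, Tpsb2, Kit, Fcer1a, Hdc and Ms4a2 were followed in diseased brachiocephalic arteries, the first branch of the aortic arch, of 8 mice with atherosclerosis. They were chosen by name from a set of mast cell markers, are 8 of the 24391 gene symbols in the count table, and all 8 were among the 15980 genes kept for testing. They encode granule proteases, the growth factor receptor KIT, chains of the IgE receptor and the enzyme that makes histamine. The mice were C57BL/6 animals, described in the series' design text as wild type in a smooth muscle cell lineage tracing line, and all had eaten a Western diet for 18 weeks. The IL1_AB animals (n = 4) had been injected with an antibody against interleukin-1β (IL-1β), an inflammatory cytokine, and the IgG_Control animals (n = 4) with immunoglobulin G. The labels name no other allele, no Cre driver, and no dose or duration of the antibody. Each library was total RNA of 1 animal's frozen artery, a mixture of cell types per the labels.

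Mast cells are long-lived tissue immune cells that store proteases, histamine and heparin in granules and release them when IgE bound to its receptor is crosslinked. They grow under KIT and its ligand stem cell factor, and in arteries they lie mostly in the adventitia and around small vessels, with more in advanced human plaques. In mice, connective tissue mast cells carry chymases, tryptase and carboxypeptidase, and mucosal mast cells carry a different pair of chymases.

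None of the 8 genes passed the test between IL1_AB and IgG animals, and the CPM of the groups overlapped for every one. CPM (counts per M assigned reads) scales a gene's reads to a common library total, here after TMM scaling of the library sizes. Fold changes were above 0 for 7 of the 8 genes, where 47.7% of all genes tested lay above 0, and their log2 values ran from -0.03 to 0.44 with a median of 0.17, where the median of all genes was -0.0096. The edgeR quasi-likelihood test, adjusted over 15980 genes by the Benjamini-Hochberg method, called 0 genes (0% higher, 0% lower), and every mast cell gene had an adjusted p of 0.9997. At an unadjusted edgeR p under 0.05 it called 0 of the 8 and 509 of all genes (3.19%, with 1.13% higher and 2.06% lower), while DESeq2 called 8 genes past adjusted p 0.05, none of them a mast cell gene. Between animals, Cma1, Mcpt4 and Fcer1a were high or low in the same arteries, and Hdc did not follow them.

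Counts assigned to genes ranged from 20137336 to 27100415 in IL1_AB libraries and from 21902802 to 29453014 in IgG libraries. The 8 mast cell genes together held 1357 to 2294 reads in IL1_AB libraries and 1257 to 2382 reads in IgG libraries. All but Ms4a2 (7 of 8) had at least 10 reads in every library. Marker lists were summed by CPM to describe the mix of cells. The 8 macrophage genes summed to 1809 to 2596 CPM in IL1_AB and 1676 to 3685 CPM in IgG libraries. The 6 smooth muscle genes summed to 1434 to 3929 CPM in IL1_AB and 2210 to 2927 CPM in IgG libraries. With no undiseased artery in the series, these sums cannot check the lesion label. The white adipocyte list summed to 3947 to 7798 CPM in IL1_AB libraries and 4001 to 5174 CPM in IgG libraries. Within it, Fabp4 had 1764 to 3764 and Lpl 983 to 2515 CPM over all libraries. Plin1 had 320 to 637, Cidec 177 to 458 and Adipoq 176 to 405 CPM, while Lep had 7.39 to 103 and Retn 12.1 to 32.1 CPM. Which cells gave these reads, and where they lay, was not tested.

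Carboxypeptidase A3, chymase, mast cell protease 4 and tryptase beta 2 are the enzymes stored in granules of connective tissue mast cells. Cpa3 (chr3:20115515-20142080, minus strand, mm9, 1453 bases of exon) encodes the carboxypeptidase that trims peptides from their carboxyl end. It had 11.6, 10.6, 7.53 and 6.39 CPM in IL1_AB animals 1 to 4, against 7.15, 7.98, 5.73 and 11.6 CPM in IgG animals 1 to 4. The highest values, in IL1_AB animal 1 and IgG animal 4, came from opposite groups. Cpa3 averaged 9.03 ± 2.46 CPM in IL1_AB and 8.11 ± 2.49 CPM in IgG animals (SD, n = 4 each), a log2 fold change of 0.15 ± 0.26 (SE, 95% interval -0.43 to 0.74).

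Cma1 (chr14:56560288-56563498, minus strand, mm9, 1076 bases of exon) encodes a chymase by descent that has elastase-like activity in the mouse, and it gave the highest level per kilobase of exon of the 8. It had 11.2, 11.5, 10.7 and 8.18 CPM in IL1_AB animals 1 to 4, against 9.99, 7.19, 7.75 and 15.6 CPM in IgG animals 1 to 4. IgG animal 4 lay above all other animals, and the other 3 IgG animals lay below 3 of the 4 IL1_AB animals. The group means were 10.4 ± 1.51 CPM in IL1_AB and 10.1 ± 3.82 CPM in IgG animals (SD), and the log2 fold change was 0.03 ± 0.25 (SE, 95% interval -0.52 to 0.59).

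Mcpt4 (chr14:56678581-56681147, minus strand, mm9, 990 bases of exon) encodes the protease with chymase activity, cutting after aromatic residues, of mouse connective tissue mast cells. It had 8.83, 12.1, 8.01 and 8.05 CPM in IL1_AB animals 1 to 4, against 7.6, 6.23, 6.35 and 12.2 CPM in IgG animals 1 to 4. All 4 IL1_AB animals lay above 3 of the 4 IgG animals, and IgG animal 4 lay above every IL1_AB animal. Its means were 9.26 ± 1.95 CPM in IL1_AB and 8.10 ± 2.82 CPM in IgG animals (SD), with a log2 fold change of 0.19 ± 0.25 (SE, 95% interval -0.36 to 0.75). Without IgG animal 4 that value was 0.46 (edgeR quasi-likelihood, unadjusted p = 0.050, adjusted p = 0.9999), the smallest unadjusted p of any of the 8 genes under any alternative run.

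Tpsb2 (chr17:25503278-25505037, plus strand, mm9, 1088 bases of exon) encodes a tryptase, a heparin-stabilised protease that cuts after basic residues. It had 8.01, 8.76, 7.18 and 6.07 CPM in IL1_AB animals 1 to 4, against 8.18, 8.25, 4.87 and 9.28 CPM in IgG animals 1 to 4. The IL1_AB values lay inside the range of the IgG values. The means were 7.50 ± 1.15 CPM in IL1_AB and 7.65 ± 1.92 CPM in IgG animals (SD), and the log2 fold change was -0.03 ± 0.22 (SE, 95% interval -0.51 to 0.46). It was the single gene of the 8 with a fold change below 0.

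Summed over these 4 protease genes, the level was 39.6, 43.0, 33.4 and 28.7 CPM in IL1_AB animals 1 to 4, against 32.9, 29.7, 24.7 and 48.6 CPM in IgG animals 1 to 4. The highest and the lowest of the 8 sums were both IgG animals, 4 and 3, and the IL1_AB sums lay between them. The mean was 36.2 ± 6.38 CPM in IL1_AB and 34.0 ± 10.3 CPM in IgG animals (SD, n = 4 each). In a bulk sample, fewer mast cells and less RNA of these genes per mast cell cannot be told apart.

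Kit (chr5:75971012-76052746, plus strand, mm9, 5181 bases of exon) encodes the receptor tyrosine kinase for stem cell factor, on which mast cell survival depends. It had 43.2, 32.1, 24.2 and 20.3 CPM in IL1_AB animals 1 to 4, against 34.6, 24.3, 25.3 and 26.0 CPM in IgG animals 1 to 4. IL1_AB animals held both the highest and the lowest value, and 3 of the 4 IgG animals lay within 24.3 to 26.0 CPM. The means were 29.9 ± 10.1 CPM in IL1_AB and 27.5 ± 4.74 CPM in IgG animals (SD), a log2 fold change of 0.12 ± 0.23 (SE, 95% interval -0.39 to 0.63). Without IL1_AB animal 1 it was -0.11.

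KIT is also made by melanocytes and by interstitial pacemaker-type cells. Markers of the first were low. Tyrp1 had no read in any library, Tyr had 0 to 2, and Dct and Slc45a2 had 0 to 8 reads. Mlana had 0 to 18 and Pmel 17 to 33 reads. The 6 melanocyte genes summed to 1.05 to 1.62 CPM in IL1_AB and 1.21 to 1.74 CPM in IgG libraries. Of the second, Ano1 and Etv1 summed to 127.9 to 147 CPM in IL1_AB and 95.3 to 138 CPM in IgG libraries; Ano1 is also a smooth muscle channel. The part of those cells in the Kit values was not tested.

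The IgE receptor genes were the lowest of the set. Fcer1a (chr1:175151402-175157360, minus strand, mm9, 1026 bases of exon) encodes the alpha chain, which binds IgE. It had 1.71, 1.82, 1.23 and 0.729 CPM in IL1_AB animals 1 to 4, against 1.16, 0.553, 0.649 and 1.96 CPM in IgG animals 1 to 4, from 18 to 52 reads in IL1_AB and 12 to 58 reads in IgG animals. Again IgG animal 4 was the highest and the next were IL1_AB animals 2 and 1. The means were 1.37 ± 0.501 CPM in IL1_AB and 1.08 ± 0.643 CPM in IgG animals (SD), with a log2 fold change of 0.33 ± 0.45 (SE, 95% interval -0.68 to 1.34); it was 0.78 without IgG animal 4 and 0.12 without IgG animal 2.

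Ms4a2 (chr19:11690011-11698209, minus strand, mm9, 2815 bases of exon) encodes the beta chain, which amplifies the signal. It had 0.488, 0.946, 0.306 and 0.648 CPM in IL1_AB animals 1 to 4, against 0.650, 0.277, 0.216 and 0.607 CPM in IgG animals 1 to 4, from 7 to 27 reads in IL1_AB and 6 to 19 reads in IgG animals. IL1_AB animal 2 was the highest, and IgG animals 2 and 3 were the lowest. The means were 0.597 ± 0.271 CPM in IL1_AB and 0.438 ± 0.223 CPM in IgG animals (SD). Its log2 fold change of 0.44 ± 0.48 (SE, 95% interval -0.63 to 1.51) had the smallest p of the 8 genes (edgeR quasi-likelihood, unadjusted p = 0.376, adjusted p = 0.9997).

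Hdc (chr2:126419396-126444414, minus strand, mm9, 2399 bases of exon) encodes histidine decarboxylase, which makes histamine in mast cells, basophils and some other myeloid cells. It had 2.59, 2.49, 5.12 and 4.57 CPM in IL1_AB animals 1 to 4, against 3.15, 3.14, 3.53 and 3.24 CPM in IgG animals 1 to 4. The IL1_AB animals split to both sides of the narrow IgG range, with animals 1 and 2 below it and animals 3 and 4 above it. The means were 3.69 ± 1.35 CPM in IL1_AB and 3.26 ± 0.186 CPM in IgG animals (SD), and the log2 fold change was 0.18 ± 0.26 (SE, 95% interval -0.42 to 0.77). Among 6 basophil markers, the protease genes Mcpt8 and Prss34 had 0 to 8 reads per library, Il4 1 to 9 and Cd200r3 2 to 18, while Il3ra had 230 to 379 and Itga2 162 to 294 reads. The 6 summed to 18.0 to 24.3 CPM in IL1_AB and 17.0 to 27.3 CPM in IgG libraries, and the part of basophils in the Hdc values was not tested.

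**Figure D1:**
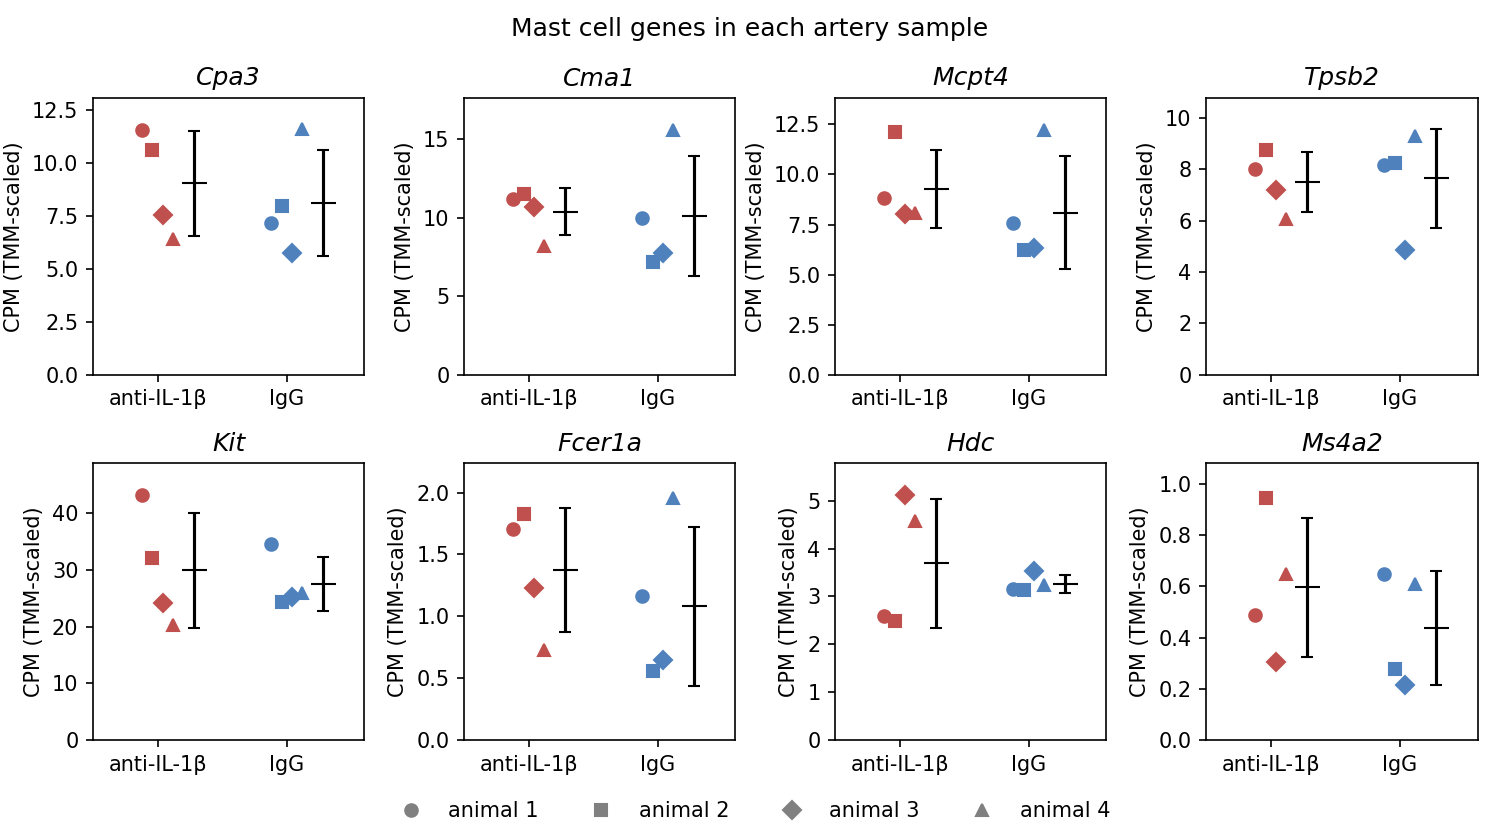
CPM (TMM-scaled) of each mast cell gene in the 4 anti-IL-1β (IL1_AB) animals on the left and the 4 IgG animals on the right; each symbol is 1 animal, the bar is the mean with its SD, and a shared symbol does not pair animals. The groups overlap in all 8 panels, IgG animal 4 is the highest point for Cpa3, Cma1, Mcpt4, Tpsb2 and Fcer1a, and Hdc in IL1_AB animals lies on both sides of the IgG points.

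**Figure D2:**
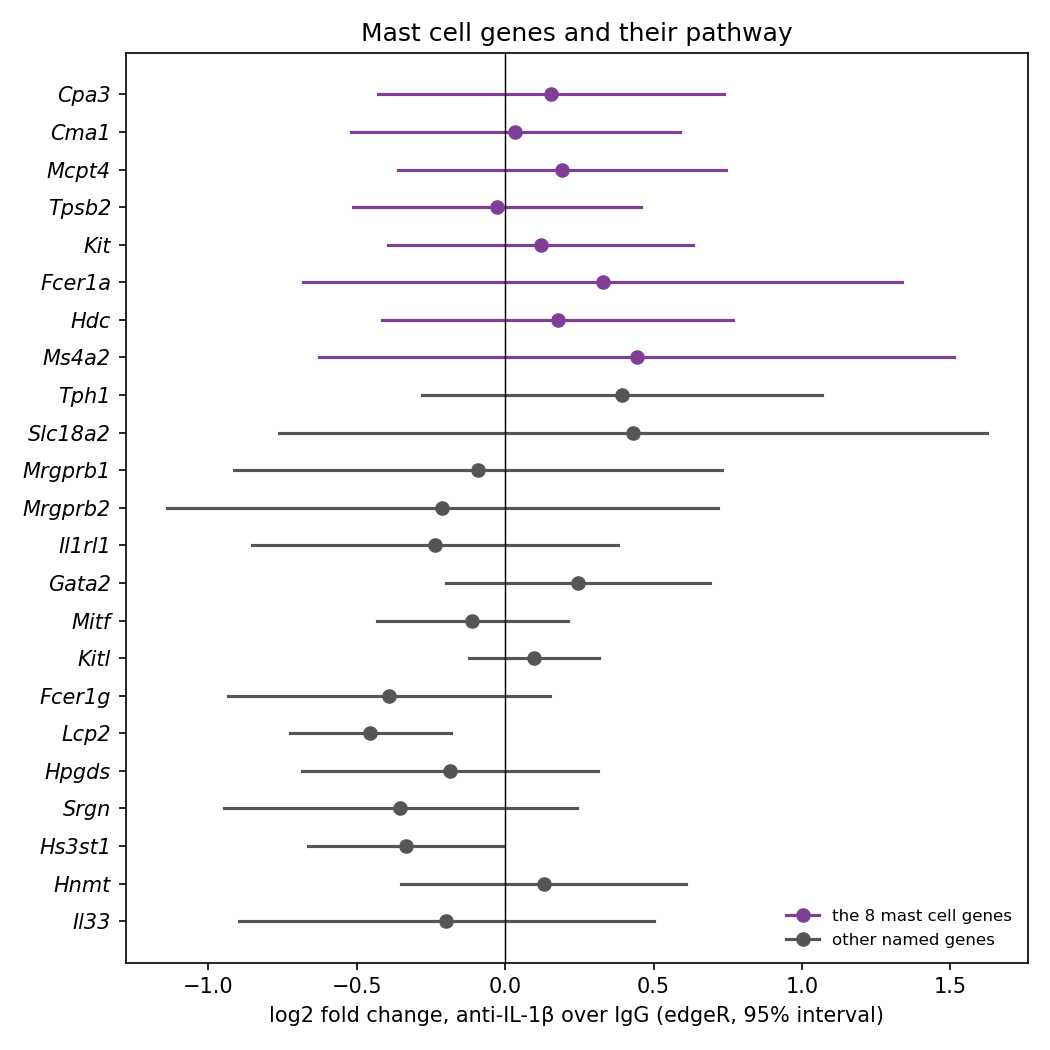
Log2 fold change of IL1_AB over IgG animals with its 95% interval from edgeR, for the 8 mast cell genes (first rows) and 15 other named genes of their pathway. The intervals of all 8 mast cell genes cross 0, and those of Lcp2 and Hs3st1 do not at the unadjusted level.

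Levels between genes were compared per kilobase of exon, over all 8 libraries. Cma1 led with 9.53 ± 2.50 CPM per kb (SD, n = 8), before Mcpt4 at 8.76 ± 2.35, Tpsb2 at 6.96 ± 1.35, Cpa3 at 5.90 ± 1.61 and Kit at 5.55 ± 1.43 CPM per kb. Kit, first by CPM, was thus the fifth once its long transcript was taken into account. Hdc followed at 1.45 ± 0.384, Fcer1a at 1.19 ± 0.541 and Ms4a2 at 0.184 ± 0.0871 CPM per kb. For Ms4a2 the exon length used was 2815 bases, while its transcript in the count of shared windows had 1211 bases. Its level per kb would be higher with that shorter length. Kit lay above Hdc, and Fcer1a above Ms4a2, in 8 of 8 libraries. Neighbouring pairs that differed by less than 1 SD of their difference over libraries were Cma1 and Mcpt4 (0.765 ± 1.28 CPM per kb), Mcpt4 and Tpsb2 (1.80 ± 1.81), Cpa3 and Kit (0.349 ± 1.43) and Hdc and Fcer1a (0.255 ± 0.786).

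Of 10 genes of other mast cell and basophil granule proteases, 1 was kept for testing. This was Gzmb, also a gene of cytotoxic lymphocytes, with 4 to 45 reads and a log2 fold change of -1.04 ± 0.69 (SE), which was -0.43 without IgG animal 2 and -1.61 without IL1_AB animal 4; the list's summed level was 1.12 to 2.25 CPM in IL1_AB and 0.83 to 3.09 CPM in IgG libraries. Mcpt1 and Mcpt2, the chymases of mucosal mast cells, had no read in any IL1_AB library and totals of 1 and 2 reads in 1 IgG library each. Tpsab1, a tryptase gene with a splice defect in C57BL/6 mice, had 2, 0, 2 and 1 reads in IL1_AB animals 1 to 4, against 9, 0, 2 and 2 reads in IgG animals 1 to 4. Mcpt8, of basophils, had 8, 2, 4 and 0 reads in IL1_AB animals 1 to 4, against 0, 2, 4 and 0 reads in IgG animals 1 to 4. A count of 0 still allows 3 reads, which is 0.105 to 0.146 CPM in the IL1_AB libraries and 0.101 to 0.138 CPM in the IgG libraries. Mcpt1, Mcpt2, Mcpt9 and Cma2 were singled out after their values were seen; Mcpt9 and Cma2 had at most 3 reads in any library. Reads that align to several close copies were not counted, so such genes could lose reads. The read length is not given in the sources used here, so windows of 50 bases were taken as an assumed length: 5.46% of the Cma1 transcript were shared with another gene model and 5.48% of the Mcpt4 transcript with Cma2 and Mcpt9, and none of the other 6 genes' windows were shared.

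**Figure D3:**
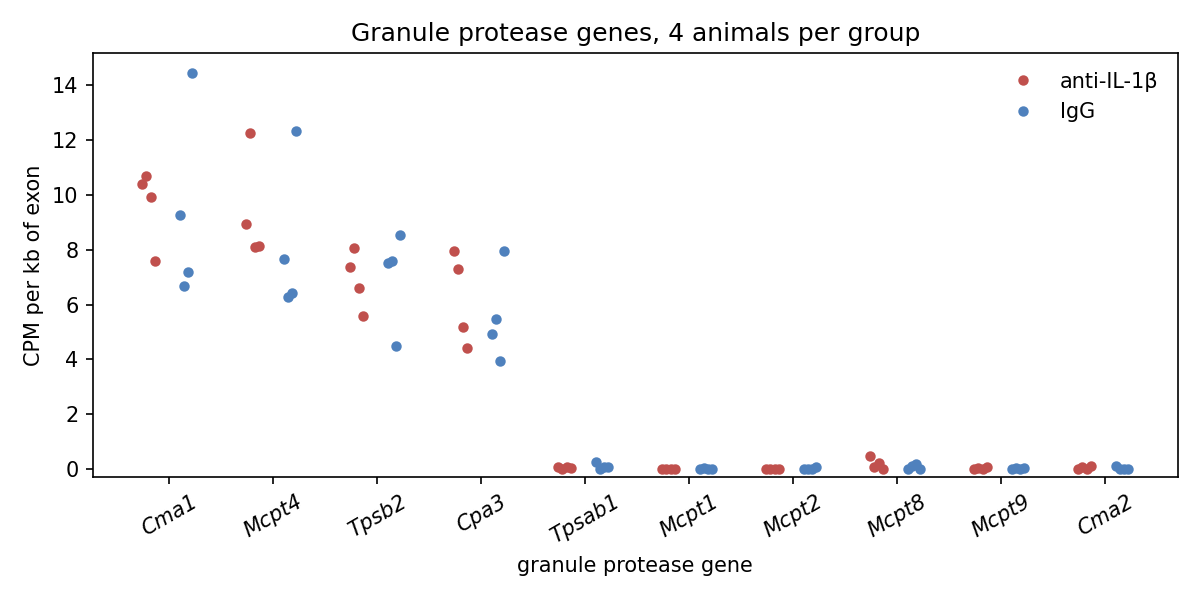
CPM per kb of exon for the 4 mast cell protease genes followed here and 6 other granule protease genes, with IL1_AB animals (red) left of IgG animals (blue) and 1 point per animal. Cma1, Mcpt4, Tpsb2 and Cpa3 lie well above 0 in every animal, and Tpsab1, Mcpt1, Mcpt2, Mcpt8, Mcpt9 and Cma2 lie at or near 0.

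Some arteries were high for most of the set. IgG animal 4 ranked first of 8 for Cpa3, Cma1, Mcpt4, Tpsb2 and Fcer1a and lay above the 8-library median for 8 of 8 genes, and IL1_AB animal 2 lay above it for 7. IgG animals 2 and 3 lay above the median for 2 genes and 1 gene. Among the 15 pairs of the 4 proteases, Fcer1a and Ms4a2, the Pearson correlation of log2 CPM over the 8 libraries was above 0 in 15 of 15, with a median r of 0.77 and a range of 0.49 to 0.94. Over all 28 pairs of the 8 genes, 3 passed 0.05 after Benjamini-Hochberg adjustment of two-sided exact permutation p-values, and all 3 joined Cma1, Mcpt4 and Fcer1a. Animals of both groups entered these correlations; of the 15 pairs, r was above 0 for 14 within IL1_AB animals, the exception being Cma1 and Ms4a2 (-0.03), and for 15 within IgG animals. No pair with Cpa3, Tpsb2 or Ms4a2 passed. How often pairs of other genes reach such r in these 8 libraries was not tested.

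Cma1 and Fcer1a ordered the 8 animals identically, with r = 0.94 (exact permutation p = 4.96e-05, adjusted p = 0.00139) and rho = 1.0 (exact permutation p = 4.96e-05, adjusted p = 0.00139). Without the 2 libraries farthest from the Cma1 median r was 0.98, and it was 0.97 within IL1_AB and 0.99 within IgG animals. Cma1 and Mcpt4 had r = 0.88 (exact permutation p = 0.00179, adjusted p = 0.0250) and rho = 0.93 (exact permutation p = 0.00223, adjusted p = 0.0208), with r = 0.74 without those 2 libraries, 0.58 within IL1_AB and 0.99 within IgG animals. Mcpt4 and Fcer1a had r = 0.88 (exact permutation p = 0.00275, adjusted p = 0.0257) and rho = 0.93 (exact permutation p = 0.00223, adjusted p = 0.0208), with r = 0.84 without the 2 libraries farthest from the Mcpt4 median, 0.68 within IL1_AB and 0.96 within IgG animals.

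Hdc did not follow the other genes. Its r with each of the other 7 genes was below 0, from -0.75 (with Kit) to -0.25 (with Cma1), with a median of -0.41. It was below 0 for 7 of 7 within IL1_AB and within IgG animals alike. In IgG animals Hdc varied little (3.14 to 3.53 CPM, 68 to 98 reads), so r there rests on small differences. Without the 2 libraries farthest from the median of 1 gene of each pair, r was above 0 for 1 of the 7. That was 0.073, with Mcpt4, and the lowest such r was -0.79, with Kit. None of the 7 passed the adjusted exact permutation test (smallest adjusted p = 0.106, for Kit). Kit had r of 0.26 to 0.59 with the other 6 genes, above 0 for 6 of 6 within IL1_AB and 5 of 6 within IgG animals (-0.14 with Cpa3), and none of those passed either. Against the mean of the other 7 genes, r was 0.93 for Fcer1a, 0.90 for Mcpt4, 0.88 for Cma1, 0.79 for Cpa3, 0.70 for Tpsb2, 0.63 for Ms4a2, 0.41 for Kit and -0.54 for Hdc.

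**Figure D4:**
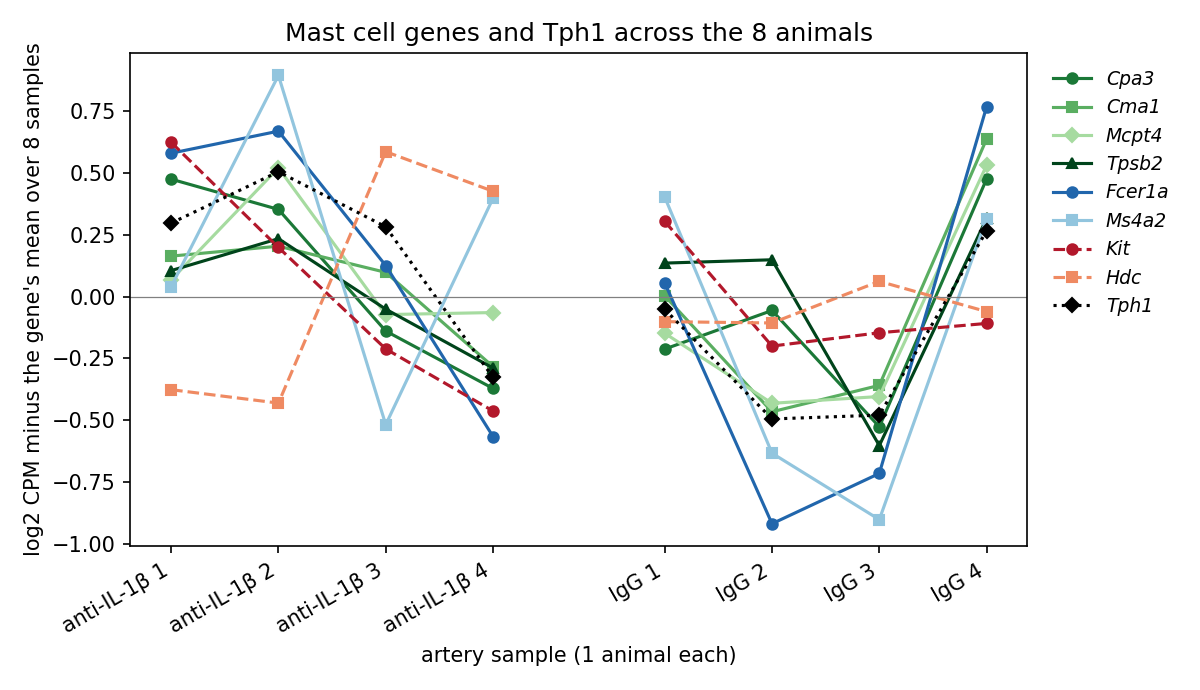
Log2 CPM minus the gene's mean over the 8 libraries, for the 8 mast cell genes and Tph1 in each animal, IL1_AB animals on the left; lines only join the points of 1 gene, since animals have no order. The proteases, Fcer1a, Ms4a2 and Tph1 lie high in IL1_AB animal 2 and IgG animal 4, and all but Tpsb2 and Cpa3 lie well below 0 in IgG animal 2, while Hdc is high in IL1_AB animals 3 and 4.

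Among 14635 genes with a mean of at least 1 CPM, the 10 whose log2 CPM was most like the mean of the 8 mast cell genes over the 8 libraries had r from 0.88 to 0.94, where the median gene had -0.05. These genes were picked as the highest of 14635 over only 8 libraries, so their r is a description and was not tested. They were Wdr89 (0.94), the potassium channel gene Kcnk1 (0.92), 5730409E04Rik (0.92), Tph1 (0.91), the sorting receptor gene Sorcs1 (0.90), the kinase gene Dyrk1a (0.90), Zfp940 (0.89), the deubiquitinase gene Stambp (0.89), the atypical chemokine receptor gene Ackr1 (0.88) and Zfp551 (0.88). Tph1, the enzyme that starts serotonin synthesis in mouse mast cells and enterochromaffin cells, was the fourth of them and the one that also stood in the mast cell pathway lists. It had 1.42, 1.65, 1.4 and 0.890 CPM in IL1_AB animals 1 to 4, against 1.09, 0.784, 0.793 and 1.38 CPM in IgG animals 1 to 4. As for the summed proteases, IL1_AB animal 2 and IgG animal 4 were each the highest of their group, and the groups overlapped. The log2 value was 0.39 ± 0.30 (SE, 95% interval -0.28 to 1.07). The next pathway genes by likeness were Slc18a2 (r = 0.73), the vesicle transporter for histamine and serotonin, the IL-33 receptor gene Il1rl1 (0.68) and Mrgprb1 (0.62), of a receptor family on connective tissue mast cells. They ranked only 586, 906 and 1277 among the 14635 genes. Slc18a2 averaged 24.9 CPM per kb over the 8 libraries, above Cma1 at 9.53 CPM per kb. Which cells gave the Slc18a2 reads was not tested. Most of the pathway genes compared had r below 0, among them Fcer1g (-0.48), Kitl (-0.38) and, as the lowest, Stxbp2 (-0.62).

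Levels of other cells' markers also differed between the arteries. The 6 neutrophil genes in the table summed to 16, 17.6, 12.2 and 10.9 CPM in IL1_AB animals 1 to 4, against 17.0, 11.5, 10.5 and 15.9 CPM in IgG animals 1 to 4. The log2 of that sum had r = 0.88 with the mean of the 8 mast cell genes over the 8 libraries. This was the highest r of 12 marker lists and is given as a description. Endothelial markers ran from 1491 to 1721 CPM in IL1_AB and from 1457 to 1823 CPM in IgG libraries. Their highest sum was in IgG animal 2, and their r of -0.66 was the lowest of the 12 lists. The r of the remaining lists lay from -0.39 (macrophage) to 0.51 (nerve and Schwann). Brown adipocyte markers were at 4768 CPM in IL1_AB animal 3 and at 1363 to 2077 CPM in the other 7 libraries. Of their fold changes, 6 of 6 lay above 0, where 47.7% of all genes did. At an unadjusted edgeR p under 0.05 stood 2 of the 6, against 3.19% of all genes. The part of these cells in the shared pattern was not tested.

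Windows around the transcription start are shown for the 3 genes that varied together, for Cpa3 and, as the gene whose correlations with them were below 0, for Hdc. Of the 8 genes, 7 had a window of 250 bases before to 50 bases after the start in the RefSeq table (GRCm38.p6, a later build than that of the counts). Capitals mark a GATA motif, the core bound by GATA factors, which was AGATAA, or ended in G (AGATAG), or began with T (TGATAA), or did both (TGATAG), on either strand; positions count from the start site to the motif's first base. All 5 windows lie on the minus strand, at chr14:55944626-55944925 for Cma1, chr14:56062261-56062560 for Mcpt4, chr1:173227180-173227479 for Fcer1a, chr3:20242132-20242431 for Cpa3 and chr2:126618629-126618928 for Hdc.
Cma1: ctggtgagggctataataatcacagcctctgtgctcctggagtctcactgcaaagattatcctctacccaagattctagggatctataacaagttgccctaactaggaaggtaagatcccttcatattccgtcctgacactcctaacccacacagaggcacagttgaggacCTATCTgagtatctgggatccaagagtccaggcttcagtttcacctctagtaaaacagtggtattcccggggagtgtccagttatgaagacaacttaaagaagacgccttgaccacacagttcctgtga
Mcpt4: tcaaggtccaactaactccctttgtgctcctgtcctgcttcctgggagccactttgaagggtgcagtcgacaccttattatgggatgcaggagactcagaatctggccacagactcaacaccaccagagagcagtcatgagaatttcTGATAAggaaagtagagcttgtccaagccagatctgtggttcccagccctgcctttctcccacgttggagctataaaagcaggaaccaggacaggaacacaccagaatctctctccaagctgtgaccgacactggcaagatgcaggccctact
Fcer1a: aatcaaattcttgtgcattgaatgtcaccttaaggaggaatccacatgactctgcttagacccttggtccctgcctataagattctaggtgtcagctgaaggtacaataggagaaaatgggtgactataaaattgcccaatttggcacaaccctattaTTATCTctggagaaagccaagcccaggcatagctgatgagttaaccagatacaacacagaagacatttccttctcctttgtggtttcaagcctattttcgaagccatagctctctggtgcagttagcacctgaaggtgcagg
Cpa3: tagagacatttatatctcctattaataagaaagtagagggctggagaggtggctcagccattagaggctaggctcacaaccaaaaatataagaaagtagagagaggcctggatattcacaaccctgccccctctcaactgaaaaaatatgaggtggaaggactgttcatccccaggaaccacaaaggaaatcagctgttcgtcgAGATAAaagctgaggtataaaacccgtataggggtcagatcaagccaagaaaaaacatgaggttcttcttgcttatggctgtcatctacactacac
Hdc: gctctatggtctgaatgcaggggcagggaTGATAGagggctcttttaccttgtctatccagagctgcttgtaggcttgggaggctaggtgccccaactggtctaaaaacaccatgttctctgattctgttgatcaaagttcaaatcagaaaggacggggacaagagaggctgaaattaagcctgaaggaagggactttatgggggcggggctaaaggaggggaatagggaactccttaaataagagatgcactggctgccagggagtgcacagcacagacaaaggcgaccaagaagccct
The motif began at -79 in Cma1, -103 in Mcpt4, -92 in Fcer1a, -46 in Cpa3 and -221 in Hdc, so it lay farthest from the start in Hdc among these 5. Ms4a2 (chr19:11623670-11623969, minus strand) held 3, at -224, -37 and -11, and the Kit windows held none. In all, 6 of the 7 genes held at least 1 such motif, as did 29.8% of 32851 windows of the same length over all genes. The E-box motifs CACGTG and CACATG, of the kind bound by the mast cell factor MITF, stood in 1 of the 7 (Fcer1a, at -208) and in 20.4% of all windows. These matches of letters describe the windows and show no binding.

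Genes that act around the 8 were read from lists of their pathway. All 15 genes of IgE receptor signalling had fold changes below 0 with TMM scaling, with a median log2 of -0.26, and 0 of the 15 passed adjusted p 0.05 with edgeR. Over all genes tested, 47.7% lay above 0. Lcp2, the adaptor SLP-76, had 30.2, 27.5, 25.3 and 27.8 CPM in IL1_AB animals 1 to 4, against 31.1, 40.3, 37.8 and 42.7 CPM in IgG animals 1 to 4, so its groups did not overlap, which was so for 1.96% of all genes. Its log2 fold change was -0.45 ± 0.12 (SE, edgeR quasi-likelihood, unadjusted p = 0.00418, adjusted p = 0.9997). Lcp2 was the 1 gene of the 15 with an unadjusted p under 0.05, where 3.19% of all genes had one. Fcer1g, the signalling chain that the IgE receptor shares with IgG receptors of macrophages, averaged 51.9 ± 11.7 CPM in IL1_AB and 68.0 ± 22.0 CPM in IgG animals (SD), with a log2 value of -0.39 ± 0.24 (SE). The phosphatase gene Ptpn6 gave -0.36 ± 0.16 and the phospholipase gene Plcg2 -0.33 ± 0.15 (SE). These genes are shared with other blood-derived cells: the 8 macrophage markers, at levels far above those of the mast cell genes, likewise had 0 of 8 fold changes above 0, with a median log2 of -0.36, and their part in the signalling list was not tested.

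Of the KIT ligand and transcription factor list, 9 of 10 genes were kept, 4 with fold changes above 0 and 5 below, with a median log2 of -0.05 and none past the edgeR threshold. Kitl, encoding stem cell factor, averaged 88.3 ± 5.16 CPM in IL1_AB and 82.6 ± 6.89 CPM in IgG animals (SD), a log2 fold change of 0.10 ± 0.10 (SE). Gata2, a factor mast cells need, averaged 29.8 ± 4.61 CPM in IL1_AB and 25.1 ± 7.16 CPM in IgG animals (SD), at 0.25 ± 0.20 (SE). Mitf gave -0.11 ± 0.14, Runx1 -0.28 ± 0.18 and Spi1, also a macrophage factor, -0.25 ± 0.16 (SE).

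All 10 genes of granule storage and amines were kept, 3 with fold changes above 0 and 7 below, with a median log2 of -0.11. Hs3st1, a sulfotransferase of heparan chains, averaged 9.61 ± 1.56 CPM in IL1_AB and 12.1 ± 0.772 CPM in IgG animals (SD); the highest IL1_AB value, 11.01 CPM, all but met the lowest IgG value, 11.02 CPM. Its log2 fold change was -0.34 ± 0.15 (SE, edgeR quasi-likelihood, unadjusted p = 0.0456, adjusted p = 0.9997), and with total-count scaling the unadjusted p was 0.0912. Slc18a2 spread most, with 124, 139, 119 and 52.5 CPM in IL1_AB animals 1 to 4, against 167, 22.9, 49.2 and 84.2 CPM in IgG animals 1 to 4. The IgG animals alone spanned the whole range of the 8, and the log2 fold change was 0.43 ± 0.53 (SE). It was 1.07 without IgG animal 1 (edgeR quasi-likelihood, unadjusted p = 0.0368, adjusted p = 0.511) and 0.12 without IgG animal 2. Srgn, the proteoglycan core of granules in many blood cells, gave -0.35 ± 0.27 (SE), and -0.084 without IgG animal 3.

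For histamine receptors and breakdown, 4 of 6 genes were kept, 1 above 0 and 3 below, with a median log2 of -0.01. Hnmt, the enzyme that methylates histamine, gave 0.13 ± 0.21 and the receptor genes Hrh1 and Hrh2 gave -0.28 ± 0.19 and -0.01 ± 0.29 (SE). All 7 lipid mediator enzyme genes lay below 0, where 47.7% of all genes lay above 0, with a median log2 of -0.26. None of the 7 had an unadjusted p under 0.05. Among them Alox5ap gave -0.39 ± 0.23, Pla2g4a -0.34 ± 0.27, Alox5 -0.29 ± 0.25 and the prostaglandin D synthase gene Hpgds -0.19 ± 0.22 (SE); macrophages make these enzymes too.

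Of 10 other surface genes, 7 were kept, 1 above 0 and 6 below, with a median log2 of -0.19. Il1rl1 averaged 6.19 ± 1.12 CPM in IL1_AB and 7.29 ± 2.84 CPM in IgG animals (SD), at -0.24 ± 0.27 (SE). The secretagogue receptor genes Mrgprb1 and Mrgprb2, singled out after their values were seen, averaged 2.71 ± 1.05 and 0.632 ± 0.172 CPM in IL1_AB animals, against 2.89 ± 1.0 and 0.727 ± 0.376 CPM in IgG animals (SD). Siglecf gave 0.52 ± 0.47, Il3ra -0.19 ± 0.19 and the shared cytokine receptor gene Csf2rb -0.19 ± 0.22 (SE). Of 9 growth and alarmin cytokine genes 3 were kept: Il33 gave -0.20 ± 0.31, Il6 -0.59 ± 0.68 and Tslp 0.01 ± 0.40 (SE), and none of the 3 had an unadjusted p under 0.05.

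The fold changes of the mast cell genes depended on single animals. With limma-voom and weights for sample quality, 3 of the 8 genes lay above 0 and the median log2 fold change was -0.19; IgG animal 4, highest for 5 of the 8 genes, there had a weight of 6.00 and the other libraries 0.320 to 1.68. With equal weights in the same method, added after the data were seen, 8 of 8 lay above 0 and the median was 0.13. Without IgG animal 4 the edgeR median was 0.35 and 8 of 8 lay above 0, and without IL1_AB animal 2 the median was 0.071 and 6 of 8 lay above 0. Under every one of 16 alternatives, 0 of the 8 genes passed the adjusted threshold.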

How the data were processed

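Total RNA of 8 arteries, 1 per animal, was sequenced. Per the file headers, the authors deposited raw counts made with featureCounts 1.4.6-p4 over exons of the UCSC mm9 annotation, grouped by gene name, with no strand, read-pair or multi-mapping option. CASAVA, STAR 3.0, Subread and DESeq2 stand in the submitters' processing notes with no role given. Without strand, reads from antisense transcripts cannot be told apart, and alignments at several places (35.2% to 48.0% of alignments) were not counted. All 8 count columns were used; 0 were left out. The labels do not say more of how animals were assigned, and each p measures the spread between these samples.

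Genes were kept by filterByExpr (minimum count 10, minimum total 15), scaled by TMM and tested with the edgeR 4.0.16 quasi-likelihood F test in R 4.3.3, IL1_AB over IgG, with no covariate, Benjamini-Hochberg over all genes kept and a threshold of 0.05. SE is the log2 fold change divided by the root of F, and 95% intervals use the fit's degrees of freedom. The test was tested on simulated data first. CPM per kb divides CPM by the authors' exon length in bases. Correlations between the genes used log2 CPM with a prior count of 2, all 40320 orders of the libraries, two-sided, and adjustment over 28 pairs. Floors of 3 counts cover counting error only, while the fold change intervals rest on the spread between animals.

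The members and lists were chosen with earlier results of these data known. The named genes are the 8 members, up to 3 with the smallest p from each pathway list, 12 pathway genes fixed by name (some of which the smallest p also named) and the 10 most alike; genes chosen after their values were seen are marked as such. Alternatives were DESeq2 size factors, total-count scaling, DESeq2 1.42.0, limma-voom (limma 3.58.1) with and without sample weights, no filter, at least 1 CPM in 4 libraries, a replicate block, and each library left out. Shared windows of 50 bases were counted over GENCODE transcripts and promoter windows taken from RefSeq, both of GRCm38, by gene symbol.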

Additional observations from a re-analysis of the deposited data

Results flagged for a closer look

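In groups of 4, a sample was marked where its gap to the nearest other, divided by the group's range, exceeded Dixon's 95% critical value; this marked 9 of 106 groups over 53 genes, and chance marks about 1 in 20. Of the 16 groups of the mast cell genes, 1 was among them: Kit in IgG animal 1, at 34.6 CPM where the other IgG animals had 24.3 to 26.0 CPM.

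IgG animal 1 was also apart for Spi1, at 34.3 CPM where the others had 54.1 to 55.7 CPM, and for Csf2rb, at 81.4 CPM where the others had 163 to 171 CPM. Srgn in IL1_AB animal 4 was at 73.9 CPM, with 51.2 to 52.8 CPM in the other IL1_AB animals. Hrh2 in IgG animal 2 was at 4.43 CPM, with 2.09 to 2.29 CPM in the others. Kcnk1 in IL1_AB animal 2 was at 2.56 CPM, with 1.49 to 1.66 CPM in the others.

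For 3 protease genes the marked sample rests on at most 3 reads, with no read in the other IgG animals: Mcpt1 in IgG animal 2 at 0.0461 CPM (1 read), Mcpt2 in IgG animal 4 at 0.0675 CPM (2 reads) and Cma2 in IgG animal 1 at 0.103 CPM (3 reads). All 3 lie at or under the limit that a count of 0 allows.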

How the results depend on the processing

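The number of genes past adjusted p 0.05 was 0 with edgeR, 8 with DESeq2, 2 with limma-voom with sample quality weights and 0 to 1 with each replicate left out; none was a mast cell gene in any of the 16 alternatives. Mast cell genes with a fold change above 0 numbered 7 of 8, 3 with limma-voom with sample quality weights and 5 to 8 with each replicate left out, and their median log2 fold change was 0.17, -0.19 and 0.071 to 0.35 in the same order. With a replicate block the median was 0.14 and 7 of 8 lay above 0, with 0 genes called. Deviations of same-numbered animals from their group means had r = 0.29, -0.34, -0.13 and -0.0012. Differently numbered animals had r from -0.52 to 0.46. So few values cannot decide whether the numbers pair animals, and the labels do not say.

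Of 749 recomputed gene values, 43 changed sign, 15 of them among 127 of the mast cell genes. With limma-voom with sample quality weights these were Cpa3 (-0.18), Cma1 (-0.41), Mcpt4 (-0.24), Fcer1a (-0.28), Hrh2 (0.22), Tslp (-0.061), Wdr89 (-0.095), Kcnk1 (-0.00098), 5730409E04Rik (-0.078) and Zfp551 (-0.0037). With equal weights they were Tpsb2 (0.0055), Hrh2 (0.061) and Tslp (-0.082), with total-count scaling Hrh2 (0.012), and with the replicate block Hrh2 (0.039) and Tslp (-0.057).

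With each replicate left out, log2 fold changes kept their sign for Cpa3 (0.014 to 0.38), Mcpt4 (0.034 to 0.46), Fcer1a (0.12 to 0.78) and Ms4a2 (0.12 to 0.70). Those that crossed 0 ran from -0.098 to 0.32 for Cma1, -0.19 to 0.081 for Tpsb2, -0.11 to 0.27 for Kit, -0.021 to 0.32 for Hdc, -0.016 to 0.29 for Hnmt, -0.13 to 0.31 for Hrh2, -0.30 to 0.0030 for Il3ra, -0.94 to 0.087 for Il6, -0.25 to 0.25 for Tslp, -0.40 to 0.029 for Il1rl1, -0.35 to 0.031 for Hpgds, -0.036 to 0.14 for 5730409E04Rik, -0.0021 to 0.36 for Zfp940, -0.31 to 0.12 for Mrgprb1 and -0.42 to 0.15 for Mrgprb2. Genes at an unadjusted p under 0.05 numbered 509 with edgeR, 2772 with limma-voom with sample quality weights, 1517 without IgG animal 1, 310 without IgG animal 4 and 783 without IL1_AB animal 2. The sample weights are the only difference between the pair of limma-voom fits; the causes of the other shifts were not tested. With 4 animals a group, the median half-width of the 95% interval over all genes was 0.40 on the log2 scale, and Ms4a2, at 6 to 27 reads per library, was not kept under the filter at 1 CPM.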
